A study of Mus musculus with 4 samples.

Results

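The genes described here are 32 mouse genes whose mutants fail in neural tube closure, taken as a named list and found by matching the Ensembl identifiers of the deposited table to gene symbols. All 32 were among the 28765 genes of the table, and all 32 are protein coding. RNA-seq libraries were made from the brain and from the spine of CD-1 mouse embryos at embryonic day 9.5 (E9.5), 1 from controls and 1 from embryos with neural tube defects (NTD) for each tissue, 4 in all. Per the labels' protocols, CD-1 mice supplied at 7 to 8 weeks of age ate a diet low in folate for over 8 weeks, mothers were injected on E7.5 with 1.5 mg/kg of methotrexate (MTX), a drug that blocks dihydrofolate reductase, and embryos with visible defects were taken 2 days later. The labels carry this same text for the control libraries, call the NTD libraries folate deficient, and do not say which of the diet and the injection the control mothers received. The sources used here do not give how many embryos went into a library or where brain and spine were cut. With 1 library in each group no difference within a tissue has a replicate check or a p-value, and any batch that went with treatment cannot be told apart from treatment. The one test given joins the tissues and takes the difference between their NTD against control ratios as error, which does not measure the spread between embryos.

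The neural tube forms when the edges of the neural plate bend, meet and fuse along the dorsal midline. Bending uses actin and myosin at the apical side of neuroepithelial cells, whose contraction narrows the cell tops. Fusion also needs the surface ectoderm that flanks the plate, the basement membrane under it and, in the head, the mesenchyme beneath. Wnt planar polarity signals narrow and lengthen the plate, and sonic hedgehog (Shh) and bone morphogenetic protein (BMP) signals set where it bends. The 32 genes are ordered below by these roles, with coordinates in GRCm38.

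Levels are FPKM, which are reads scaled to gene length and to the size of the library. Library totals recovered from the table lay between 16272101 and 16911677 reads. Comparisons cover the 12940 genes whose 4 libraries averaged 1 FPKM or more. A gene is counted as higher in one library and lower in the other when the larger (FPKM + 1) was at least 25% above the smaller. The fold of a single gene sets its recovered reads, each divided by the library's total, against each other, with an exact 95% interval in parentheses that covers counting error only. The libraries carried the regional genes of their labels: 8 anterior patterning genes summed to 91.3 FPKM in control brain but 13.9 FPKM in control spine, and 7 trunk genes (Hox genes and Cdx2) to 0.202 and 121 FPKM. Marker sums also differed between NTD and control. Heart markers summed to 48.4 FPKM in the control and 202 FPKM in the NTD brain, and to 708 FPKM in the control and 480 FPKM in the NTD spine; neuron markers summed to 162, 104, 94.1 and 49.3 FPKM in control and NTD brain and in control and NTD spine. In that order erythroid markers summed to 4481.5, 4820, 6987 and 3645 FPKM, with 8 of 8 lower in NTD than in control spine. Of all 12940 genes compared, 7509 were lower there. Endoderm and yolk sac markers summed in that order to 7.06, 4.94, 126 and 42.3 FPKM, and somite markers to 14.4, 25.0, 124 and 149 FPKM. The part of these tissues in the members' values was not tested. In whole tissue, fewer cells of a type and less RNA per cell cannot be told apart.

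Closure genes were expressed at widely different levels, and their spread over the 4 libraries was much like that of other genes. Marcksl1, which encodes a membrane protein that binds actin filaments and calmodulin, was at the top with 551 to 631 FPKM, followed by Cfl1 (cofilin, which severs actin filaments) with 233 to 247 FPKM. At the other end were Cobl, an actin nucleator, with 0.582 to 0.883 FPKM, and Intu, a planar polarity effector at the base of cilia, with 0.482 to 0.772 FPKM. These last genes were under the filter, which leaves 30 members for comparison. Their median level was 11.7 FPKM, against 7.28 FPKM for all genes compared, and 23 of the 30 were above the median gene. The highest of the 4 libraries was less than 25% above the lowest for 16 of these 30 members, a share close to the 49.1% among all genes compared. The widest spread was that of Grhl3, 1.98 times, and no member reached 2 times.

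**Figure D1:**
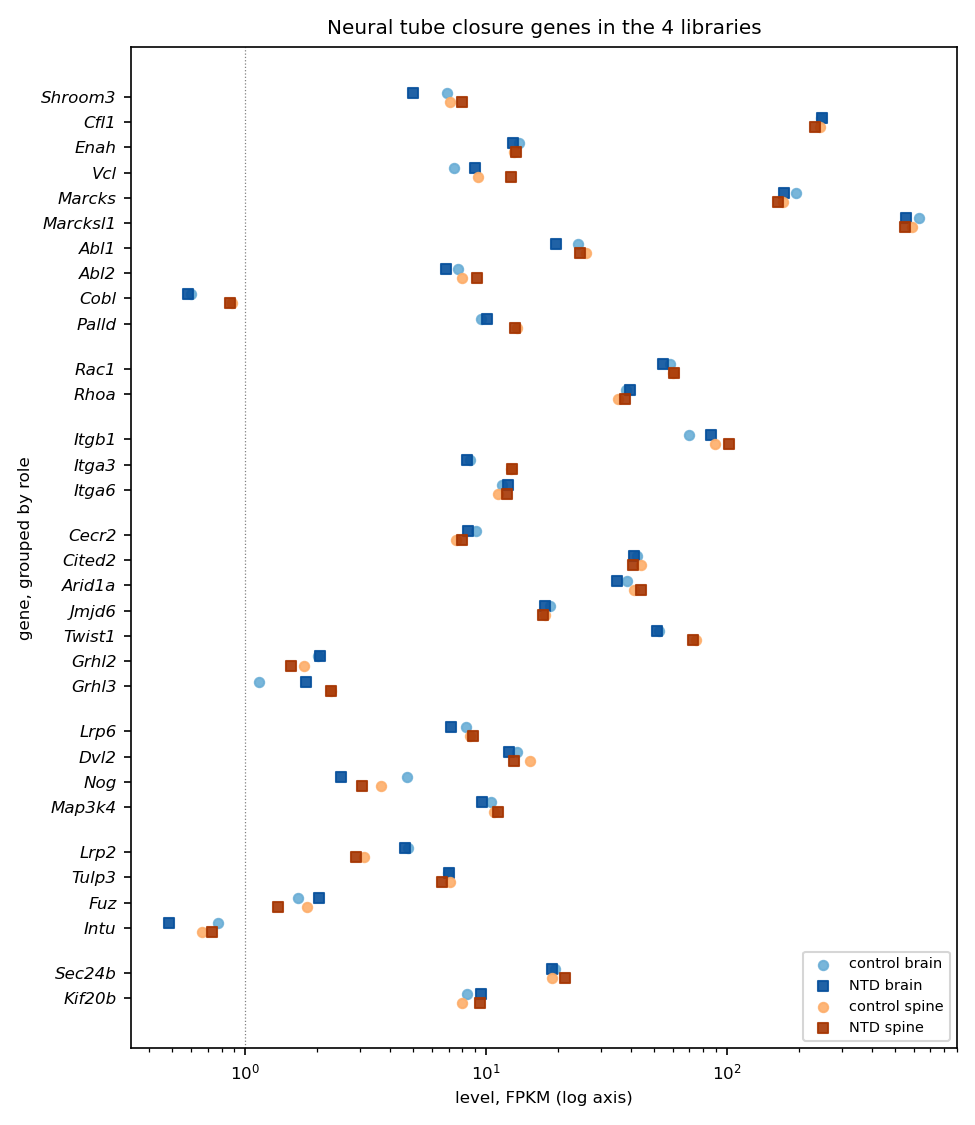
Levels of the 32 closure genes (FPKM, log axis) in control and NTD brain and in control and NTD spine, grouped by role; each point is 1 library and the dotted line marks 1 FPKM. The 4 points of a gene mostly lie close together while genes differ from 0.482 to 631 FPKM, with Shroom3, Vcl, Grhl3 and Nog among those that spread.

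Few closure genes passed the threshold between NTD and control. At the 25% threshold 1 of 30 was higher in NTD brain, where 5.06% of all genes compared were, and 2 were lower, where 9.34% were. The higher gene was Grhl3 and the lower ones were Nog and Shroom3. In spine 1 of 30 was higher (4.22% of all genes), which was Vcl, and 0 were lower (11.1% of all genes). No member passed in the same direction in both tissues, where 1.51% of all genes were higher and 4.05% lower in both. At 1.5-fold, 1 member was lower in NTD brain (Nog, 2.56% of all genes) and 0 were higher (2.02%), and in spine 0 were higher (1.45%) and 0 lower (2.93%). At 2-fold 0 passed in brain (0.804% of all genes higher, 0.781% lower) or in spine (0.649% and 0.680%). These counts are near or under the shares among all genes. Closure genes had a median log2 ratio of -0.04 in brain and 0.01 in spine, beside -0.03 and -0.04 for all genes compared. Their median absolute log2 ratio was 0.10 in brain and 0.09 in spine, beside 0.13 for all genes compared in each tissue.

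A fit over both tissues, with tissue as a block, was added after the values had been seen. It used limma on log2 (FPKM + 1) of all genes compared, and leaves 1 residual degree of freedom beside a prior of 3.41 drawn from all genes. No member had a Benjamini-Hochberg adjusted p under 0.05 (0 of 30), where 10 of 12940 genes were higher (0.0773%) and 9 lower (0.0696%). At an unadjusted p under 0.05 there were 4 members, or 13.3%, beside 21.9% of all genes. Vcl was higher in NTD by a log2 difference of 0.34 (SE 0.072, limma adjusted p = 0.130) and Itgb1 by 0.25 (SE 0.056, limma adjusted p = 0.135). Kif20b was higher by 0.20 (SE 0.066) and Nog was at -0.45 (SE 0.149), each with a limma adjusted p of 0.198. Each of the 4 had the same direction in both tissues. Where the tissues differ in direction the fit takes that as error, as for Shroom3, which was at -0.12 (SE 0.148).

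**Figure D2:**
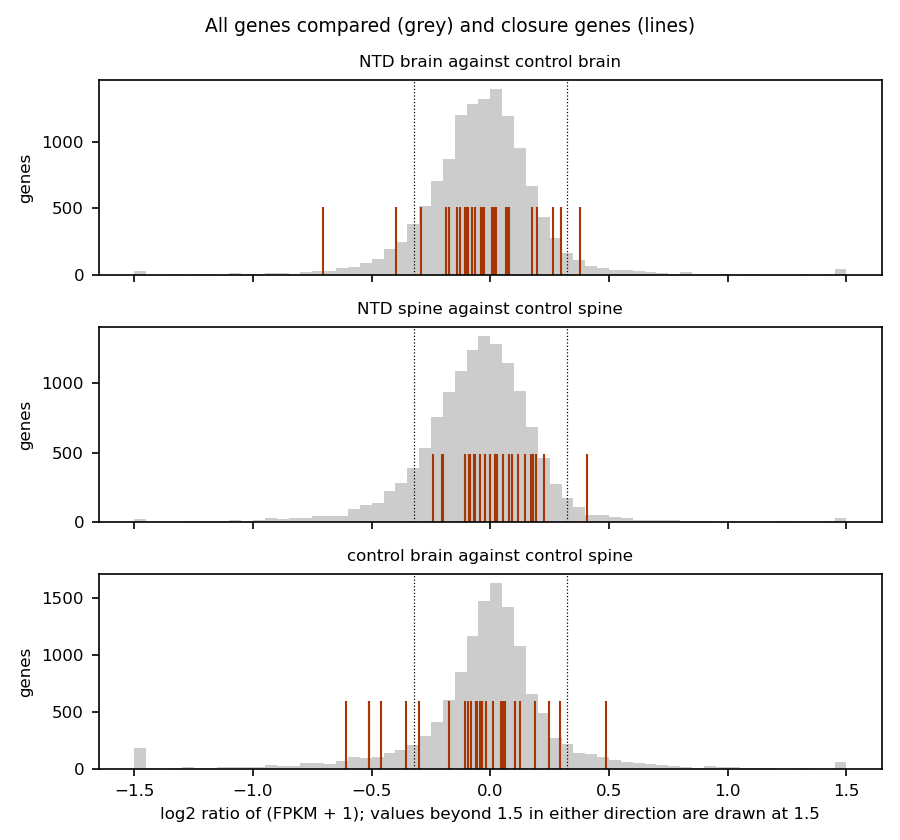
Distribution of log2 ratios of (FPKM + 1) over the 12940 genes compared (grey, number of genes per bin) with the 30 closure genes as lines, for NTD against control in brain, in spine, and for control brain against control spine; dotted lines mark the 25% threshold. Nog and Shroom3 lie to the left and Grhl3 to the right of the dotted lines in brain, and Vcl to the right in spine.

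Among the 10 genes of the actin cytoskeleton, Shroom3 was lower in NTD brain and Vcl higher in both NTD tissues, past the threshold in spine. Shroom3 encodes an actin-binding protein that drives constriction at the apical junctions, and its loss leaves the cranial neural folds open (ENSMUSG00000029381, chromosome 5, 92683435 to 92965318). It stood at 6.87 FPKM in the control and 4.98 FPKM in the NTD brain, and 7.07 FPKM in the control and 7.95 FPKM in the NTD spine, so NTD brain was the low library of the 4. Shroom3 was 1.38-fold lower in NTD brain (1.28 to 1.49) and 1.12-fold higher in NTD spine (1.05 to 1.20). With the ratio centred for GC content and length (below) Shroom3 no longer passed in brain, at -0.28. Neuroepithelium markers summed to 501 FPKM in the control and 424 FPKM in the NTD brain, and 362 FPKM in the control and 316 FPKM in the NTD spine. Of these markers 9 of 10 were lower in each NTD tissue, beside 7292 of 12940 genes compared in brain and 7509 in spine. The part of these markers in the brain value of Shroom3 was not tested. A noncoding gene on the opposite strand, 4932430I15Rik, covers 24.9% of the exon bases of Shroom3, and the sources used here do not give whether the authors counted by strand.

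Vcl encodes vinculin, which ties cadherin and integrin junctions to actin (ENSMUSG00000021823, chromosome 14, 20929398 to 21033676). It was at 7.37 FPKM in the control and 9.06 FPKM in the NTD brain, and 9.30 FPKM in the control and 12.7 FPKM in the NTD spine. The NTD library was the higher in each tissue, by 1.23-fold in brain (1.13 to 1.34) and 1.36-fold in spine (1.27 to 1.47). Vinculin is also abundant in muscle, and the heart markers were higher in NTD brain but lower in NTD spine, where Vcl was again higher; their part in the brain value was not tested. Trunk genes, which mark the spine libraries, stood at 9.09 FPKM in NTD brain against 0.202 FPKM in its control. Of the 6 members with the lowest ratios of control brain to control spine, Vcl, Itgb1 and Grhl3 had log2 ratios of 0.26, 0.30 and 0.38 in NTD against control brain, while Itga3, Twist1 and Palld had -0.04, -0.03 and 0.08. The part of the trunk genes' tissue in those values was not tested. The opposite-strand gene Ap3m1 overlaps 25.5% of the exon bases of Vcl and was at 16.3, 18.01, 14.5 and 16.6 FPKM in control and NTD brain and in control and NTD spine.

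The Abl kinases, which signal to actin from membrane receptors, differed in their patterns. Abl1 was at 24.2 FPKM in the control and 19.6 FPKM in the NTD brain, and 26.1 FPKM in the control and 24.6 FPKM in the NTD spine. It was 1.24-fold lower in NTD brain (1.18 to 1.29) and 1.06-fold lower in NTD spine (1.02 to 1.11). Abl2 was at 7.67, 6.85, 8.00 and 9.20 FPKM in the same order, 1.12-fold lower in NTD brain (1.04 to 1.21) and 1.15-fold higher in NTD spine (1.07 to 1.23). Neither passed the threshold.

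The remaining actin genes differed less. Marcks, a substrate of protein kinase C at the membrane, was at 194 FPKM in the control and 172 FPKM in the NTD brain, and 171 FPKM in the control and 163 FPKM in the NTD spine, with its highest level in control brain, and Marcksl1 had 631 and 555 FPKM in brain and 587 and 551 FPKM in spine. Marcks was 1.13-fold (1.10 to 1.16) and Marcksl1 1.14-fold (1.11 to 1.16) lower in NTD brain, and in spine 1.05-fold (1.02 to 1.07) and 1.06-fold (1.04 to 1.09) lower. Enah, which encodes the filament-elongating protein Mena, stayed between 12.9 and 13.7 FPKM. Palld, which encodes the actin cross-linker palladin, was at 9.53 FPKM in the control and 10.1 FPKM in the NTD brain, under the 13.5 FPKM of the control and 13.3 FPKM of the NTD spine. For Cfl1 the NTD ratio in brain was 1.01 (0.981 to 1.03), and Cfl1 was 1.05-fold lower in NTD spine (1.02 to 1.08). Cfl1 shares 12.3% of its 31-base words with the pseudogene Gm6180, so part of its reads is uncertain. Cobl, at 78 to 117 reads per library, had intervals spanning equality in both NTD comparisons.

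The small GTPases Rac1 and Rhoa, which turn actin assembly and contraction on and off, differed little. Rac1 was at 58.2 FPKM in the control and 54.5 FPKM in the NTD brain, and 59.7 FPKM in the control and 60.6 FPKM in the NTD spine. Rhoa was at 38.0, 39.8, 35.4 and 37.8 FPKM in the same order. All 4 NTD ratios lay within 1.07-fold of equality. Daglb, on the opposite strand, overlaps 51.4% of the exon bases of Rac1 and stood at 1.45 to 1.61 FPKM.

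Of the 3 integrin genes, which encode receptors for laminin in the basement membrane, Itgb1 differed most. Itgb1 encodes the beta1 chain that pairs with both alpha chains of the list (ENSMUSG00000025809, chromosome 8, 128685654 to 128733200). Its level was 69.5 FPKM in the control and 85.8 FPKM in the NTD brain, and 89.1 FPKM in the control and 102 FPKM in the NTD spine, and none of these 4 levels overlapped in its Poisson interval except NTD brain and control spine. The NTD library was 1.23-fold higher in brain (1.19 to 1.28) and 1.14-fold higher in spine (1.11 to 1.19). Itga3 was at 8.60 FPKM in the control and 8.35 FPKM in the NTD brain, under the 12.7 FPKM of the control and 12.9 FPKM of the NTD spine. Itga6 was at 11.7, 12.4, 11.2 and 12.3 FPKM in control and NTD brain and in control and NTD spine. Its values did not convert to whole reads, so it has no interval, and it shares 6.92% of its 31-base words with the pseudogene Gm29397.

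Among the 7 transcription and chromatin genes, Grhl3 differed in brain. Grhl3 encodes a grainyhead-like factor of the surface ectoderm, whose loss is a classic cause of spina bifida in mice (ENSMUSG00000037188, chromosome 4, 135541888 to 135573630). It was at 1.14 FPKM in the control and 1.79 FPKM in the NTD brain, and 2.27 FPKM in the control and 2.27 FPKM in the NTD spine, with control brain the low library. The ratio in brain was 1.56-fold higher (1.09 to 2.24) on 54 control and 82 NTD reads, and in spine 0.999 (0.754 to 1.32). Of 12 compared surface ectoderm markers, 9 were above and 3 below equality in NTD brain, beside 5639 and 7292 of the 12940 genes compared. The sum of the markers was 164 FPKM in the control and 184 FPKM in the NTD brain, and 249 FPKM in the control and 239 FPKM in the NTD spine. Their part in the Grhl3 value was not tested. Grhl2, the relative that acts in the same epithelium, was at 2.005 FPKM in the control and 2.06 FPKM in the NTD brain, and 1.76 FPKM in the control and 1.56 FPKM in the NTD spine, and its intervals spanned equality in both NTD comparisons.

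Arid1a, a DNA-binding subunit of the BAF chromatin remodeller, was at 38.5 FPKM in the control and 35.1 FPKM in the NTD brain, and 41.2 FPKM in the control and 43.9 FPKM in the NTD spine. It was 1.10-fold lower in NTD brain (1.06 to 1.13) and 1.07-fold higher in NTD spine (1.03 to 1.10). Cecr2, which belongs to another chromatin remodelling complex, showed the same order of directions at 9.08, 8.40, 7.49 and 7.97 FPKM, 1.08-fold lower in NTD brain (1.02 to 1.14) and 1.06-fold higher in NTD spine (1.002 to 1.13). Cited2, a partner of the CBP and p300 coactivators, stayed between 40.9 and 44.2 FPKM, and Jmjd6, a lysyl hydroxylase, between 17.3 and 18.4 FPKM. Twist1, the basic helix-loop-helix factor of the head mesenchyme, was at 52.2 FPKM in the control and 51.1 FPKM in the NTD brain, and at 74.7 FPKM in the control and 72.4 FPKM in the NTD spine. Its NTD intervals spanned equality in both tissues. The 12 mesenchyme markers summed to 135 FPKM in the control and 123 FPKM in the NTD brain, and 243 FPKM in the control and 176 FPKM in the NTD spine. Of the 11 compared, 7 were below equality in NTD brain and 10 in NTD spine, beside 7292 and 7509 of the 12940 genes compared. In control and NTD spine Col1a1 was at 81.2 and 42.4 FPKM, but Pdgfra at 15.5 and 14.7 FPKM and Prrx1 at 9.29 and 10.1 FPKM.

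Nog had the largest ratio of any compared member in the NTD comparisons. It encodes noggin, a secreted BMP antagonist made by the notochord and the dorsal neural folds (ENSMUSG00000048616, chromosome 11, 89300638 to 89302332). Its level was 4.71 FPKM in the control and 2.51 FPKM in the NTD brain, and 3.66 FPKM in the control and 3.06 FPKM in the NTD spine. NTD brain was 1.88-fold lower than control brain (1.40 to 2.54), on 70 and 135 reads, and NTD spine was 1.20-fold lower than control spine with an interval that spans equality (0.890 to 1.62). Control brain was the highest of the 4 libraries and NTD brain the lowest. The intervals of the brain to spine ratio spanned equality between the controls (0.986 to 1.68) and between the NTD libraries (0.590 to 1.14).

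The Wnt genes of this group differed less. Lrp6, the Wnt co-receptor, was at 8.23 FPKM in the control and 7.18 FPKM in the NTD brain, and 8.62 FPKM in the control and 8.82 FPKM in the NTD spine, 1.15-fold lower in NTD brain (1.07 to 1.23). Dvl2, which passes on Wnt signals in both the beta-catenin and the polarity branch, was at 13.5, 12.5, 15.3 and 13.1 FPKM in the same order. It was 1.16-fold lower in NTD spine (1.08 to 1.253). Acadvl, on the opposite strand, overlaps 18.3% of the exon bases of Dvl2 and was at 7.33, 6.35, 7.60 and 6.66 FPKM in that order. Map3k4, a kinase upstream of p38, stayed between 9.64 and 11.3 FPKM.

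Of the genes tied to Shh and cilia, Lrp2 separated the tissues and Fuz had opposite ratios. Lrp2 encodes megalin, an endocytic receptor that takes up Shh and folate-binding proteins (ENSMUSG00000027070, chromosome 2, 69424340 to 69586065). It was at 4.76 FPKM in the control and 4.62 FPKM in the NTD brain, and 3.11 FPKM in the control and 2.88 FPKM in the NTD spine, so both brain libraries were above both spine libraries. Fuz, an effector of planar polarity needed to build cilia, was at 1.65 FPKM in the control and 2.04 FPKM in the NTD brain, and 1.81 FPKM in the control and 1.37 FPKM in the NTD spine. Its ratio was 1.23-fold higher in brain with an interval that spans equality (0.979 to 1.55) and 1.32-fold lower in spine (1.02 to 1.70), on 114 to 168 reads per library. Ap2a1, a far more abundant gene on the opposite strand, overlaps 14.4% of the exon bases of Fuz. D7Bwg0826e, also on the opposite strand, overlaps 24.1% of them. It was at 0.296 FPKM in the control and 0.608 FPKM in the NTD brain, and 0.194 FPKM in the control and 0.508 FPKM in the NTD spine.

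Tulp3, which carries receptors into cilia and restrains Shh signalling, stayed between 6.59 and 7.08 FPKM. Intu, which works in 1 complex with Fuz, was at 0.772 FPKM in the control and 0.482 FPKM in the NTD brain, and 0.662 FPKM in the control and 0.730 FPKM in the NTD spine. NTD brain was the low library, 1.60-fold under control brain (1.15 to 2.25) on 59 and 97 reads, a difference that the filter on low values keeps out of the counts.

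Sec24b and Kif20b completed the list. Sec24b encodes the coat protein that sorts the polarity protein Vangl2 into transport vesicles. Its level was 19.4 FPKM in the control and 18.9 FPKM in the NTD brain, and 18.7 FPKM in the control and 21.3 FPKM in the NTD spine, with NTD spine 1.13-fold higher than its control (1.07 to 1.21). Kif20b, a kinesin of the last step of cell division, was at 8.32 FPKM in the control and 9.51 FPKM in the NTD brain, and 7.97 FPKM in the control and 9.49 FPKM in the NTD spine (ENSMUSG00000024795, chromosome 19, 34922361 to 34975745). Both NTD libraries were above both controls, by 1.14-fold in brain (1.05 to 1.248) and 1.19-fold in spine (1.09 to 1.30). Kif20a, its paralog, was also higher in the NTD library of each tissue, at 33.2, 38.3, 34.7 and 43.4 FPKM.

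**Figure D3:**
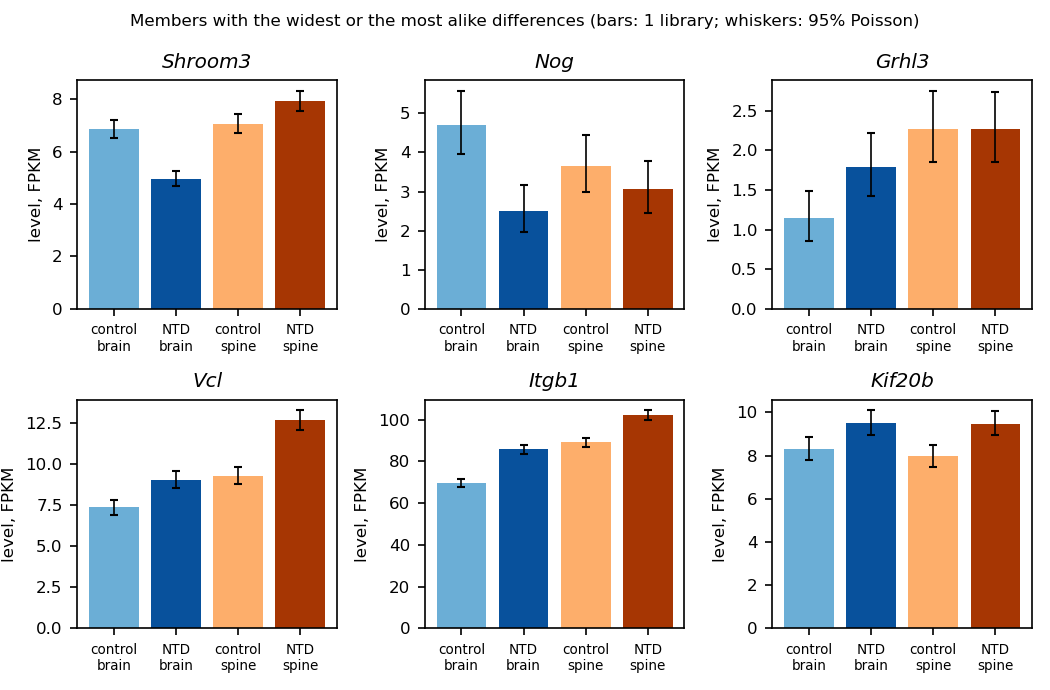
Levels (FPKM) of Shroom3, Nog, Grhl3, Vcl, Itgb1 and Kif20b in the 4 libraries; each bar is 1 library and whiskers are 95% Poisson intervals of its reads. Shroom3 and Nog are lowest in NTD brain, Grhl3 is lowest in control brain, and Vcl, Itgb1 and Kif20b are higher in the NTD library of each tissue.

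Vcl, Itgb1, Kif20b and Rhoa were higher in NTD in both tissues with intervals that exclude equality, and the promoters of the first 3, whose ratios were larger than those of Rhoa, are shown for that reason. The sequences are the 250 bases before the RefSeq start of each gene in GRCm38.p6, 5′ to 3′ on the plus strand, in lower case with any CArG box in capitals. The CArG box is the site of serum response factor (SRF), a factor that switches on actin cytoskeleton and immediate early genes. Vcl is at chr14:20929148-20929397, Kif20b at chr19:34922108-34922357 and Itgb1 at chr8:128685404-128685653.
Vcl: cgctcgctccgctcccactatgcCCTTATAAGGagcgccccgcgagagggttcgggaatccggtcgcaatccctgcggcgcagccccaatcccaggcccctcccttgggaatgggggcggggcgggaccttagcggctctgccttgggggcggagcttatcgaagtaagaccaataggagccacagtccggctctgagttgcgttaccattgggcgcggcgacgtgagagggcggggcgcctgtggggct
Kif20b: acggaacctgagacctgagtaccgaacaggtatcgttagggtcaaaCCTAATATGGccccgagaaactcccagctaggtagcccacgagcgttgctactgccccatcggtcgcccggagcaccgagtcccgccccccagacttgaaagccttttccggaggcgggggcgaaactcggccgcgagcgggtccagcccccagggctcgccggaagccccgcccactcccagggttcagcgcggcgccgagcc
Itgb1: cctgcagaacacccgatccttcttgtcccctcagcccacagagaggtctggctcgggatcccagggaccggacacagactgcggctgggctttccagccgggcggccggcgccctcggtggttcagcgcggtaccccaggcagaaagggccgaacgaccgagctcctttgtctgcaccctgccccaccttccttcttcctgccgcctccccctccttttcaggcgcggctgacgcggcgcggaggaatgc

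Of the 33 member promoters in the RefSeq table, which cover 25 of the 32 genes, those of Vcl and Kif20b held a CArG box. Among all 32851 promoters of the same length 1.47% held one on either strand. The box begins 227 bases before the start of Vcl and 204 bases before that of Kif20b. It was 1 of 14 motifs searched on both strands and was picked for description after the values were seen, so the match is a description and not a site shown to be bound. The others included CCAAT, in 11 member promoters against 33.8% of all promoters, TATAAA, in 2 against 12.4%, and the AP-1 site TGACTCA, in 2 (of Dvl2 and Palld) against 4.46%. GCGGGGGCG was in 3 (of Cobl, Enah and Kif20b) against 2.57%, GGGGCGGGG in 5 against 10.4%, and CATTCC in 6 against 12.6%. TTTCCCGC was in 1 against 0.895%, CCGGAAGT in 1 against 2.88% and CACGTG in 2 against 6.02%. TTTGAA was in 4 against 16.0% and TGACGTCA in 0 against 1.55%. The motifs not named were in 0 member promoters. These differences were not tested.

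The brain and spine ratios share no library and were set side by side. Of the 30 members, 5 were above equality in both tissues (Itga6, Itgb1, Kif20b, Rhoa and Vcl), 9 were below in both, 10 were lower in NTD brain and higher in NTD spine, and 6 were higher in brain and lower in spine. The direction was thus shared by 46.7% of the members, beside 67.9% of all genes compared; many ratios were within counting error of equality, and the difference between these shares was not tested. Rescaling the libraries, whether to an equal sum of FPKM or by the median of ratios, kept both directions for the 5, for the 10 and for 7 of the 9, and for 2 of the 6 (Fuz and Grhl2). Centring the ratios for GC content and length kept both directions for the 5, for 5 of the 10 (Abl2, Arid1a, Cecr2, Rac1 and Shroom3), for 3 of the 9 (Abl1, Marcks and Nog) and for 4 of the 6. Opposite directions with intervals that exclude equality in each tissue were seen for 4 of the 29 members with whole reads (Shroom3, Abl2, Arid1a and Cecr2), where 2.77% of all genes with whole reads had them. Across genes the brain and spine ratios had a Pearson correlation of 0.33 and a Spearman correlation of 0.19 over the 30 members, and 0.40 and 0.46 over all genes compared; genes are not independent replicates.

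**Figure D4:**
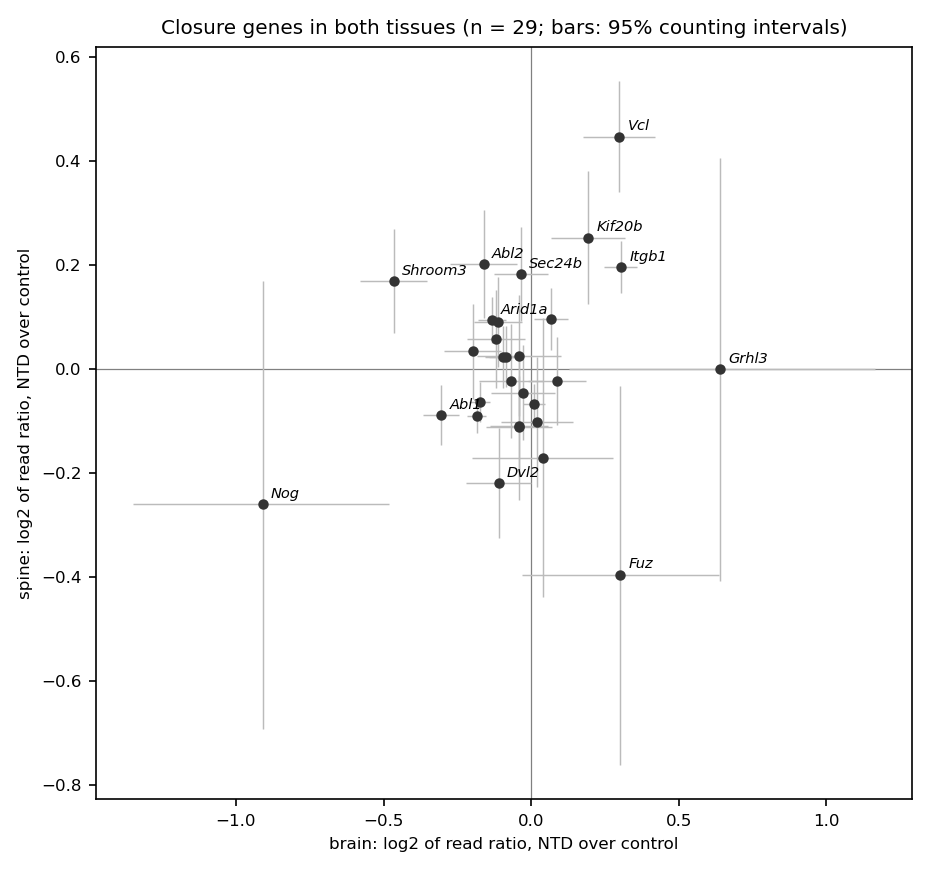
Log2 read ratios of NTD over control in brain (horizontal) and spine (vertical) for the 29 compared closure genes with whole reads; bars are 95% counting intervals. Vcl, Kif20b and Itgb1 lie at the upper right, Nog at the lower left, and Shroom3 at the upper left.

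Between the control tissues 6 of 30 members passed the threshold. At the 25% threshold 1 of 30 was higher in control brain than in control spine, where 7.53% of all genes compared were, and 5 were lower, where 10.6% were. At 1.5-fold 0 were higher (2.91%) and 1 lower (Grhl3, 5.27%), and at 2-fold 0 passed (0.981% higher, 2.38% lower). The higher gene was Lrp2, 1.53-fold (1.40 to 1.67). The lower genes were Grhl3, 1.98-fold (1.41 to 2.81), Itga3, 1.48-fold (1.35 to 1.61), Twist1, 1.43-fold (1.34 to 1.53), Palld, 1.42-fold (1.33 to 1.51), and Itgb1, 1.28-fold (1.23 to 1.33). Vcl was just inside the limit at 1.26-fold lower by reads (1.16 to 1.37), with a log2 ratio of (FPKM + 1) of -0.30. Somite markers, 14.4 FPKM in control brain against 124 FPKM in control spine, and heart markers (above) were also lower in control brain, each heart marker compared (9 of 9) included. The mesenchyme sum was lower too. Its genes were split, with 5 of 11 above and 6 below equality, beside 6648 and 6285 of the 12940 genes compared. The part of these markers in the members' differences was not tested.

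**Figure D5:**
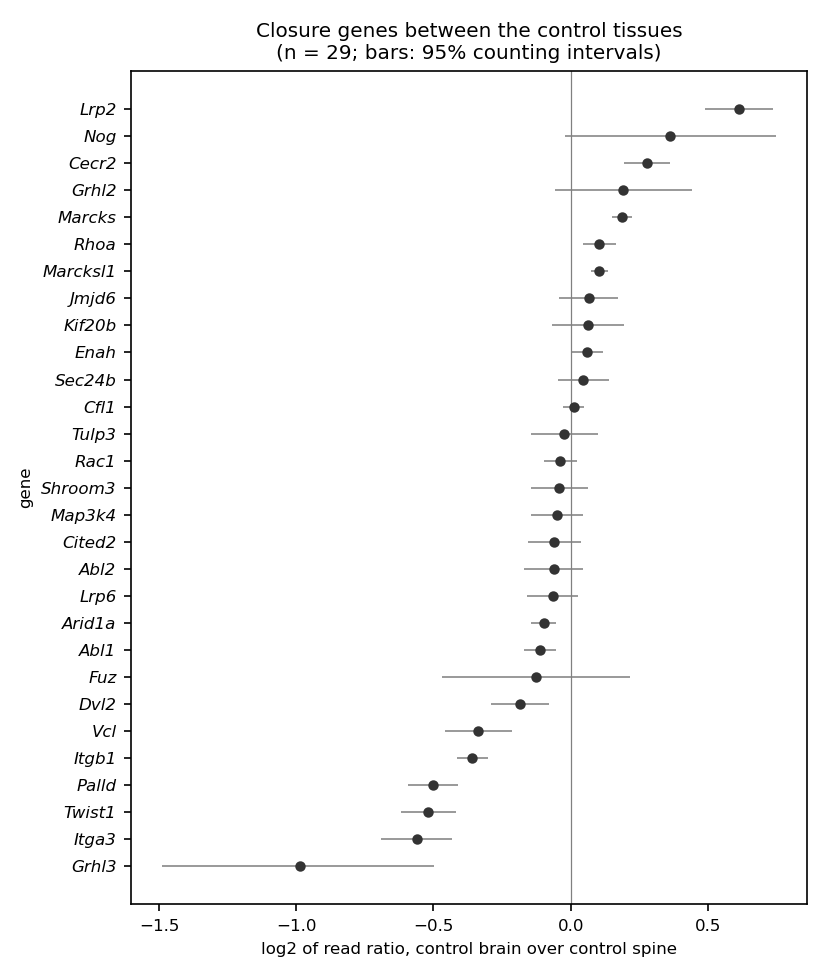
Log2 read ratios of control brain over control spine for the 29 compared closure genes with whole reads, sorted; bars are 95% counting intervals. Lrp2, with the largest ratio, and Cecr2 are among those on the brain side, and Grhl3, Itga3, Twist1, Palld, Itgb1 and Vcl are on the spine side.

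Between the NTD tissues, which use other libraries than the control comparison but share libraries with the NTD ratios above, 2 members were higher in brain at the 25% threshold (8.50% of all genes compared) and 6 lower (10.4%). Lrp2 (1.61-fold, 1.47 to 1.76) and Fuz (1.49-fold, 1.16 to 1.90) were higher. The lower genes were Shroom3 (1.60-fold, 1.48 to 1.72), Itga3 (1.55-fold, 1.41 to 1.69), Twist1 (1.42-fold, 1.32 to 1.52), Vcl (1.40-fold, 1.30 to 1.51), Abl2 (1.34-fold, 1.245 to 1.446) and Palld (1.31-fold, 1.23 to 1.40). Between the controls Shroom3 was 1.03-fold lower in brain (0.958 to 1.11), an interval that spans equality.

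Other genes of the same machinery were described from lists of their own. Of 33 actomyosin and junction genes, 31 were compared: at the 25% threshold 2 were higher and 0 lower in NTD brain, and 2 higher and 1 lower in NTD spine. All-gene shares at this threshold, for this and the lists that follow, are the 5.06% higher and 9.34% lower in brain and the 4.22% and 11.1% in spine given above. Afdn, which encodes the junction protein afadin, was at 17.7 FPKM in the control and 23.9 FPKM in the NTD spine, a log2 ratio of (FPKM + 1) of 0.41. Tjp1, the tight junction scaffold ZO-1, had a ratio of 0.38 in spine. Myl9, a myosin light chain also found in smooth muscle, had a ratio of 0.42 in brain and -0.41 in spine. Of the 11 basement membrane genes, 1 was lower in NTD brain, the collagen gene Col4a2 (-0.39), and 0 passed in NTD spine. Before any centring for GC content and length, the laminin genes Lama5 (0.32 in brain, 0.22 in spine) and Lamb1 (0.30 and 0.20) had ratios like those of Itgb1 (0.30 and 0.19), all under the threshold. Lamc1 was at -0.10 in brain and 0.17 in spine, and the remaining laminin gene of the list at 0.01 and 0.16. Of the 11 genes, 3 were above and 8 below equality in NTD brain, with a median of -0.04. In NTD spine 9 were above and 2 below, with a median of 0.09. Of all 12940 genes compared, 5639 were above and 7292 below in brain (median -0.03), and 5425 and 7509 in spine (median -0.04).

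Of 16 planar polarity genes, ligands and receptors included, 14 were compared, with 1 higher and 2 lower in NTD brain and 2 higher and 0 lower in NTD spine. The polarity cadherin gene Celsr2 (-0.37) and Vangl2 (-0.36) were the lower genes in brain and the ligand gene Wnt11 (0.34) the higher one. Wnt11 was at 0.186 FPKM in the control and 0.499 FPKM in the NTD brain, and 1.98 FPKM in the control and 2.10 FPKM in the NTD spine. Both brain levels were under 1 FPKM, and only the spine libraries brought Wnt11 past the filter. Vangl2, the cargo of Sec24b, was at 21.6 FPKM in the control and 16.6 FPKM in the NTD brain, and 17.5 FPKM in the control and 16.5 FPKM in the NTD spine. Prickle1 had log2 ratios of 0.20 in brain and 0.40 in spine and Dact1, a Dishevelled-binding protein, 0.32 and 0.34. Of 18 cilium and Shh genes 16 were compared, with 1 lower in NTD brain, which was Shh (-0.51), and 1 higher in NTD spine, which was the Shh receptor and target Ptch1 (0.42). Of the 9 BMP ligands and other antagonists 8 were compared and 0 passed in NTD brain, while in NTD spine the antagonist gene Grem1 was higher (0.38) and Bmp7 lower (-0.39). With ratios centred for GC content and length (below), Celsr2 (-0.25) and Vangl2 (-0.29) in brain and Bmp7 (-0.27) in spine were no longer past the threshold. Wnt11 (0.49) and Shh (-0.48) in brain stayed past it, as did Prickle1 (0.50), Dact1 (0.45), Ptch1 (0.39) and Grem1 (0.33) in spine. Dact1 (0.39) was then past it in brain.

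Paralogs of the members gave 26 genes to compare, with 0 higher and 4 lower in NTD brain and likewise 0 and 4 in NTD spine. Cited4, Itgb8 and Tub, a relative of Tulp3, were lower in both, Arid1b in brain and Rhoc in spine. Cited4 was at 9.80 FPKM in the control and 5.78 FPKM in the NTD brain, and 15.2 FPKM in the control and 8.20 FPKM in the NTD spine, while its relative Cited2 was within 1.08-fold. Itgb8, another integrin beta chain, had log2 ratios of -0.39 in brain and -0.43 in spine, opposite in sign to those of Itgb1. Arid1b, the alternative subunit to Arid1a, was at 8.10, 6.01, 7.97 and 7.19 FPKM in control and NTD brain and in control and NTD spine, with a ratio of -0.38 in brain. Per length, Dvl2 stood beside Dvl1 (13.8 to 14.9 FPKM) and under Dvl3 (19.2 to 20.7 FPKM), and Sec24b was above Sec24a (2.31 to 2.83 FPKM) and under Sec24c (32.6 to 35.3 FPKM). With ratios centred for GC content and length (below), Tub was at -0.28 in brain and -0.31 in spine, Arid1b at -0.27 in brain and Rhoc at -0.18 in spine. None of these was then past the threshold. Cited4 (-0.54 in brain, -0.59 in spine) and Itgb8 (-0.44 and -0.49) stayed past it.

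Ratios in these libraries had a trend with GC content, and some members sit at its ends. The Spearman correlation between GC content and the log2 ratio was -0.34 in brain and -0.36 in spine across all genes compared, and -0.33 and -0.43 across the 30 members. With ratios centred on genes of like GC content and length, Shroom3, with 60.1% GC in its longest transcript, was at -0.28 in brain in place of -0.40, no longer past the threshold, Nog at -0.62 in place of -0.70, Grhl3 at 0.41 in place of 0.38 and Vcl at 0.34 in place of 0.26, now past it. In spine Vcl was at 0.40 in place of 0.41. Itgb1 was at 0.27 in brain and 0.15 in spine, and Kif20b at 0.12 and 0.14.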

How the data were processed

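The authors deposited 1 table with the FPKM of 28765 genes in 4 libraries. The submitters' processing notes name HISAT2 2.0.1 and mm10. How reads were counted, with which annotation, strand setting and filters, was not given in the sources used here. Groups follow the sample titles. GENCODE M21 (GRCm38) matched 28698 identifiers. Multiplied by exon length, the deposited FPKM of a library fell on whole multiples of a single step, which returned its read total and the reads of each gene; for 98.6% of matched genes all 4 values were whole within 0.01 reads, and intervals are given for those alone.

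Log2 ratios use (FPKM + 1), which understates differences of low genes, and leave out genes averaging under 1 FPKM. Fold intervals are exact (Clopper-Pearson, conditional binomial, 95%); without molecular identifiers they cover counting error only. Adjusted ratios were centred within 10 by 10 cells of GC content (longest transcript) and exon length. Pseudogenes hold at least 5% of the 31-base words of a member's longest transcript. Promoters came from RefSeq (GRCm38.p6). The steps were tested on simulated reads. Alternatives tried were other pseudocounts, filters, scalings and thresholds, the GC and length adjustment, and calls whose interval excludes equality. All members, their paralogs and markers could be named, and of the other lists up to 4 genes with the largest ratios in a comparison. Members, lists and rules were chosen with earlier results of these data known. The joint fit of both tissues used limma 3.58.1 in R 4.3.3. Python 3.11.15, numpy 2.4.6, pandas 2.3.3 and scipy 1.17.1 were used.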

Additional observations from a re-analysis of the deposited data

Results flagged for a closer look

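Shroom3, Abl2, Arid1a and Cecr2 were lower in NTD brain and higher in NTD spine, each with counting intervals that exclude equality in both tissues. The log2 ratio in spine minus that in brain was 0.546 for Shroom3, 0.322 for Abl2, 0.220 for Arid1a and 0.180 for Cecr2. With 1 library per group the difference between the tissues was not tested. These are 4 of the 29 members with whole reads (13.8%), beside 2.77% of all genes compared that had whole reads. More reads give a narrower interval. The members compared had a median level of 11.7 FPKM, against 7.28 FPKM for all genes compared. The median exon length was 7461 bases for the 32 members and 4009 bases for all genes compared. The part of read depth in these shares was not tested. With ratios centred for GC content and length, Shroom3 was at -0.28 in brain and 0.18 in spine, Abl2 at -0.08 and 0.14, Arid1a at -0.02 and 0.13, and Cecr2 at -0.03 and 0.04.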

How the results depend on the processing

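Without the tissue block the limma fit over both tissues also gave 0 of 30 members at an adjusted p under 0.05, and 2 (Kif20b and Nog) at an unadjusted p under 0.05 in place of 4; replicate numbers pair no samples here. The counts of members past the threshold changed as follows, with the all-gene share under the same setting in parentheses. With a pseudocount of 5 FPKM, 0 members were higher in NTD brain in place of 1 (1.89%), 1 (Nog) lower in place of 2 (2.87%), 0 higher in NTD spine in place of 1 (1.68%), 0 higher in control brain than control spine in place of 1 (3.03%), and 4 lower there in place of 5, without Grhl3 (5.39%). With a pseudocount of 0.1 FPKM, 1 member (Fuz) was lower in NTD spine in place of 0 (15.4%), and in control brain 2 (Lrp2 and Nog) were higher (10.1%) and 6, with Vcl, lower (13.3%). With a filter of 5 FPKM, 25 members remained, 0 were higher (3.30%) and 1 (Shroom3) lower (6.19%) in NTD brain, and in control brain 0 were higher (4.40%) and 4, without Grhl3, lower (6.71%). Scaling by the median of ratios gave 2 higher in NTD brain, Grhl3 and Itgb1 (5.88%), and scaling to equal sums 3 lower there, Abl1, Nog and Shroom3 (11.5%). The GC and length adjustment gave 3 higher (Fuz, Grhl3 and Vcl; 5.22%) and 1 lower (Nog; 6.77%) in NTD brain. At 1.5-fold 0 were higher and 1 lower (Nog) in NTD brain, 0 higher in NTD spine, and 0 higher and 1 lower (Grhl3) in control brain, and at 2-fold 0 passed in these comparisons (all-gene shares are beside the counts in the report). The members' median log2 ratio in brain went from -0.0389 to -0.0647 with the filter of 5 FPKM, -0.0740 with equal sums, -0.00718 with the median of ratios and 0.0339, a change of sign, with the GC and length adjustment. In spine it went from 0.0102 to 0.0231, 0.0558, 0.0421 and 0.0483 in that order, and for control brain against control spine from -0.0365 to -0.0509 with equal sums and -0.0198 with the adjustment. The cause of the changes was not tested, beyond what follows by construction. A stricter threshold or filter passes fewer genes. Rescaling multiplies all values of a library by 1 factor. The adjustment sets the median log2 ratio of all genes compared, -0.0319 in brain and -0.0385 in spine before it, to 0. The ratios of the 29 members with whole reads were followed under the other pseudocounts, scalings and the adjustment. Of these ratios 401 moved by less than the distance from the middle to an end of their log2 counting interval. A further 34 moved by more. Reversal was looked for only among ratios past the 25% threshold, and 0 of those reversed. Some ratios inside the threshold did change direction under rescaling or the adjustment, as given above. The grid of alternatives cannot stand in for replicates: with 1 library per group the spread between embryos is unknown. Depth limits Nog, Grhl3, Fuz, Intu and Cobl, which rest on 54 to 168 reads per library.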
